A study of Mus musculus with 6 samples.

Results

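The SLC25 genes encode the mitochondrial carriers, proteins that move metabolites across the inner mitochondrial membrane. The 43 members described here are the protein-coding mouse genes named Slc25a followed by a number, apart from Slc25a20, out of 23394 genes matched in the deposited tables. The rule goes by gene name, and each gene is represented by its transcript of highest mean value in the 6 libraries. The family and its grouping below were picked with earlier results of these data known. Of the 43 members, 38 passed the filter on low counts and were tested, and 5 were not.

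RNA came from liver cells selected on magnetic columns for F4/80, a surface antigen of mouse macrophages. All mice were C57BL/6 males, 3 months old, on normal chow, and all received carbon tetrachloride (CCl4), a hepatotoxin, into the peritoneum to induce fibrosis. The 2 groups were WT and KO, with 3 libraries each. The labels name neither the deleted gene nor the cell type in which it was deleted. Nor do they tie the libraries to separate animals, so each p-value here covers only the variation among these libraries, which may be technical.

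Each carrier links a pathway in the mitochondrial matrix to one in the cytosol. Some, such as the adenine nucleotide and phosphate carriers, serve ATP synthesis in nearly every cell. Others serve tasks of the liver: the ornithine carrier and citrin feed the urea cycle, and the citrate carrier exports carbon for lipid synthesis. The members were grouped by their known tissue distribution into 6 liver-enriched carriers, 17 ubiquitous carriers, 2 carriers of red cell precursors and 18 others.

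With 1 transcript per gene the libraries held 10790842 to 22157238 reads. Genes that define macrophages were read in every library, and so were all 20 hepatocyte markers. The deposited normalised count is a read count divided by 1 factor per library. In bulk samples, fewer cells of a type and less RNA per cell cannot be told apart.

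All 6 liver-enriched carriers had a log2 change above 0 in KO against WT libraries, though only 1 of them passed the test. Of the 17 ubiquitous carriers, 16 had a log2 change within 0.5 of 0. Slc25a47, Slc25a23 and Slc25a39 rose and no member fell, by limma's test on log2(normalised count + 1) at an adjusted p under 0.05. These were 3 of 38 tested members (7.89%), beside 2.44% of all 15619 genes tested (2.09% higher and 0.352% lower in KO). edgeR's quasi-likelihood test on recovered reads called 2 of the 38, beside 1.81% of all genes. The log2 change was above 0 for 20 of the 38 members, beside 54.2% of all genes. The median log2 change was 1.11 over the 6 liver-enriched carriers, -0.04 over the 17 ubiquitous carriers, 0.08 over all 38 members and 0.05 over all genes. Groups did not overlap for 10 members, 8 with KO above WT (21.1%) and 2, Slc25a45 and Slc25a44, below (5.26%), beside 13.7% and 9.25% of all genes (22.9% in either direction).

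**Figure D1:**
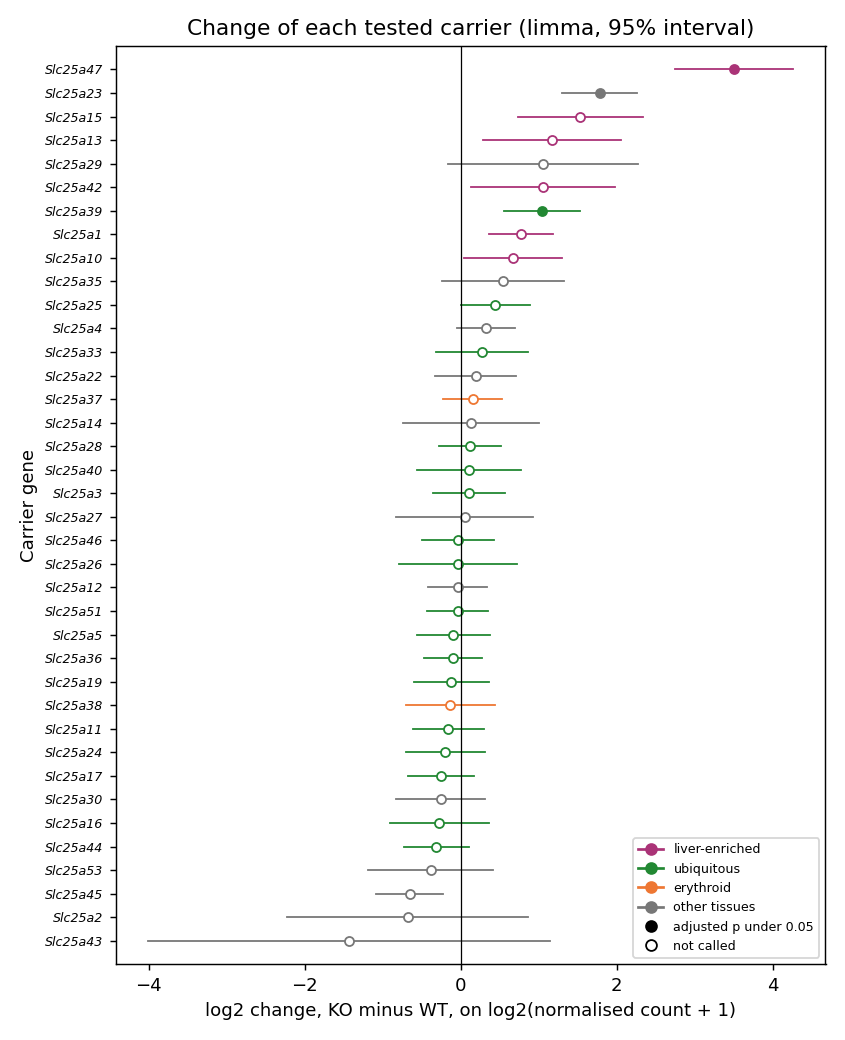
Log2 change (KO minus WT, horizontal axis) of the 38 tested carriers with 95% intervals from limma, coloured by group, with filled points for an adjusted p under 0.05. All 6 liver-enriched carriers lie to the right of 0, from 0.67 for Slc25a10 to 3.51 for Slc25a47, and 16 of the 17 ubiquitous carriers lie within 0.5 of 0.

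Slc25a47, an inner membrane carrier found almost only in liver, changed most among the members. WT replicates 1, 2 and 3 held 73.1, 57.8 and 73.6 normalised counts. KO replicates 1, 2 and 3 held 1104, 458 and 946. The lowest KO library was far above the highest WT library. The level was 11.4 times that of WT (95% interval 6.75 to 19.2), or 3.51 on the log2 scale with an SE of 0.34 (limma adjusted p = 0.00452). The values rest on 257 reads over the WT and 2244 over the KO libraries. Per kilobase of transcript, which allows levels of different genes to be compared, its mean was 43.1 in the WT libraries against 529 in the KO libraries. As a share of the summed per-kilobase level of the family, Slc25a47 took 0.329% to 0.443% in WT and 2.47% to 4.90% in KO libraries. Its kept transcript has 6 exons and lies on the plus strand of chromosome 12 at 108851129 to 108856815 in GRCm38.

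The ornithine carrier Slc25a15 exchanges ornithine and citrulline for the urea cycle, and its 7 exons lie on chromosome 8 at 22375551 to 22398597. It held 295, 132 and 216 normalised counts in WT replicates 1, 2 and 3, and 870, 393 and 607 in the KO replicates. The groups did not overlap, and the log2 change was 1.54 (SE 0.36), but the limma adjusted p of 0.0577 missed the threshold.

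Slc25a13 encodes citrin, which exports aspartate to the cytosol for the urea cycle and the malate-aspartate shuttle, from 18 exons on chromosome 6 at 6041218 to 6217173. It stood at 263, 134 and 134 in the WT and 499, 214 and 511 in the KO replicates, in order of their numbers. KO replicate 2 lay below WT replicate 1, so the groups overlapped (log2 change 1.17, SE 0.40, limma adjusted p = 0.153).

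The citrate carrier Slc25a1 held 553, 580 and 485 normalised counts in the WT libraries against 1091, 821 and 872 in the KO libraries. The groups did not overlap, at a log2 change of 0.77 (SE 0.18) and a limma adjusted p of 0.0622. The dicarboxylate carrier Slc25a10, which exchanges malate or succinate for phosphate, held 285, 389 and 300 in the WT libraries against 605, 340 and 660 in the KO libraries. KO replicate 2 lay among the WT values, and the log2 change was 0.67 (SE 0.28, limma adjusted p = 0.243). Its exons overlap those of Gm11788 on the opposite strand over 11.3% of its length.

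Slc25a42, which carries coenzyme A into the matrix, was the lowest of the liver-enriched group per kilobase. Its values were 42.2, 64.1 and 108 in the WT libraries against 113, 120 and 199 in the KO libraries, so the gap between the groups was narrow (log2 change 1.06, SE 0.41, limma adjusted p = 0.215). The transcript kept for it is a model with a retained intron. Its mean over the 6 libraries was 108, and that of the best protein-coding transcript 105.

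Among the KO libraries, replicate 2 was the lowest for 5 of these 6 carriers and replicate 1 for the other one. The summed level of the 6 carriers was 1317 to 1511 normalised counts in WT libraries and 4282, 2346 and 3794 in KO replicates 1, 2 and 3.

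Markers of hepatocytes differed in the same direction as the liver-enriched carriers. All 20 hepatocyte markers had a log2 change above 0, 9 rose and none fell, with a median of 1.77. Their summed level was 85927, 113452 and 34093 normalised counts in WT and 141889, 174836 and 257634 in KO replicates 1, 2 and 3, and none was at 0 in any library. The largest change among them was 2.78, below the 3.51 of Slc25a47. Of 12 endothelial markers all were above 0, with 5 called higher and a median of 1.37. All 6 cholangiocyte markers were above 0, with a median of 1.02, and the groups did not overlap for 4 of them, while 5 had an unadjusted p under 0.05 and none was called by limma's adjusted p. Of 12 stellate cell markers 10 were above 0 and 1 was called higher, with a median of 0.66. Macrophage markers, those of the selected cells, had a median of -0.16, with 4 of 10 above 0, 3 at an unadjusted p under 0.05 and none called by limma's adjusted p. Their summed level was 62910 to 137381 normalised counts in WT and 56790 to 73149 in KO libraries, a ratio of means of 0.635. Lymphocyte and neutrophil markers had medians of 0.07 and -0.13, and none was called. Over all 15619 genes tested, 2.44% were called and 13.7% had KO above WT without overlap. An unadjusted limma p under 0.05 was found for 2810 of them. Among the KO libraries the hepatocyte sum was highest in replicate 3 and lowest in replicate 1, while 5 of 6 carriers were lowest in replicate 2. As a mean log2 level relative to WT, the hepatocyte markers stood at 1.65, 1.66 and 2.37 in KO replicates 1, 2 and 3. The liver-enriched carriers stood at 1.73, 0.93 and 1.71.

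Set against the hepatocyte sum of the same library, Slc25a47 held 0.851, 0.509 and 2.16 normalised counts per 1000 of the sum in WT and 7.78, 2.62 and 3.67 in KO replicates 1, 2 and 3. The KO values were above the WT values. The same ratios of the other 5 liver-enriched carriers overlapped between the groups. For Slc25a15 they were 3.43, 1.17 and 6.34 in the WT libraries against 6.13, 2.25 and 2.36 in the KO libraries. These ratios are a description, and the part of hepatocyte RNA in the changes was not tested.

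**Figure D2:**
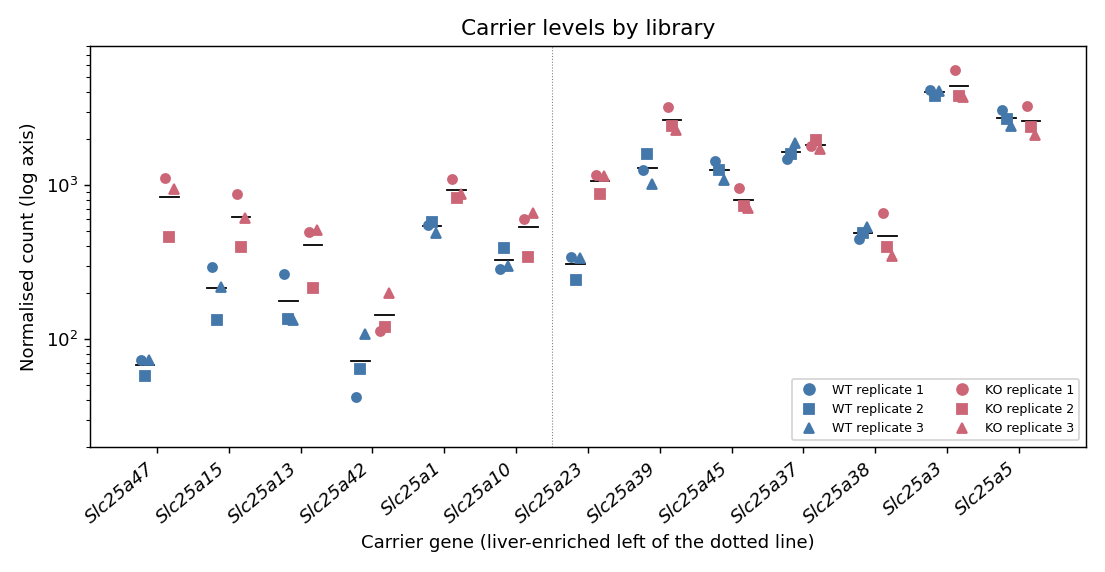
Normalised counts (log axis) of 13 carriers in each library, with WT in blue, KO in red, marker shapes for replicate numbers and a bar at each group mean. Slc25a47 lies between 57.8 and 73.6 in WT and between 458 and 1104 in KO libraries, while both groups of Slc25a3 and Slc25a5 overlap.

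Outside the list of liver-enriched carriers used here, Slc25a23 rose. It encodes a calcium-regulated carrier that exchanges ATP-Mg for phosphate and so sets the adenine nucleotide pool of the matrix. WT replicates 1, 2 and 3 held 343, 243 and 336 normalised counts, and the KO replicates held 1158, 871 and 1140. Every KO library held more than double the highest WT value of 343. The level was 3.44 times that of WT (95% interval 2.47 to 4.80), or 1.78 on the log2 scale with an SE of 0.21 (limma adjusted p = 0.0144). Without KO replicate 3 the limma adjusted p was 0.0722. The ratio to the hepatocyte sum was not computed for Slc25a23. The part of hepatocyte RNA in its change was not tested. Its exons overlap Gm17168 on the opposite strand over 4.22% of the transcript, whose 10 exons lie on chromosome 17 at 57043711 to 57059863.

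Slc25a39, needed for import of glutathione into mitochondria and strongly expressed in red cell precursors, was the only ubiquitous carrier to rise. The gene has a kept transcript of 12 exons and lies on chromosome 11 at 102402985 to 102407946. WT replicates 1, 2 and 3 held 1261, 1579 and 1008 normalised counts and the KO replicates 3194, 2413 and 2283, with no overlap. The level was 2.06 times that of WT (95% interval 1.47 to 2.89), or 1.04 on the log2 scale with an SE of 0.22 (limma adjusted p = 0.0455). This call was close to the threshold. edgeR's quasi-likelihood test on recovered reads gave an adjusted p of 0.0554, and the call held in only 1 of the 6 fits that leave out a library, the one lacking WT replicate 2. In the others limma's adjusted p was 0.128 when WT replicate 1 was dropped, 0.0998 for WT replicate 3, and 0.0549, 0.122 and 0.119 for KO replicates 1, 2 and 3.

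Erythroid markers differed in the same direction as Slc25a39. Of 9 measured erythroid markers 7 were tested, all above 0, and none was called. The groups overlapped for all 7, while 6 of them had an unadjusted limma p under 0.05. Their summed level was 13180, 33376 and 2221 normalised counts in WT replicates 1, 2 and 3 and 268741, 104277 and 30742 in KO replicates 1, 2 and 3. Within each genotype the libraries had the same order for the erythroid sum and for Slc25a39. WT replicate 2 and KO replicate 3 had similar erythroid sums, while Slc25a39 stood at 1579 and 2283. Up to 2 of the 9 markers had no read in a library. The part of red cell RNA in the change of Slc25a39 was not tested.

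The promoters of the called members are shown because these genes rose in the same libraries, together with that of Slc25a45, whose groups did not overlap in the other direction. The sequences are the 250 bases before the RefSeq start site in GRCm38.p6, 5′ to 3′ on the strand of the gene, with matches to CCAAT or its reverse complement ATTGG in capitals. RefSeq windows were matched for 34 of the 43 members. They lie at chr12:108850879-108851128 (plus strand), chr17:57059864-57060113 (minus), chr11:102407518-102407767 (minus) and chr19:5877572-5877821 (plus).
Slc25a47: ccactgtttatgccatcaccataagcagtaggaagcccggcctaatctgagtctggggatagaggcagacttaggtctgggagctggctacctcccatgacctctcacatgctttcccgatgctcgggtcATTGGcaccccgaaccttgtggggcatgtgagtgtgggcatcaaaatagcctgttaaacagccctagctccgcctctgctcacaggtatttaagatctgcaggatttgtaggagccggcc
Slc25a23: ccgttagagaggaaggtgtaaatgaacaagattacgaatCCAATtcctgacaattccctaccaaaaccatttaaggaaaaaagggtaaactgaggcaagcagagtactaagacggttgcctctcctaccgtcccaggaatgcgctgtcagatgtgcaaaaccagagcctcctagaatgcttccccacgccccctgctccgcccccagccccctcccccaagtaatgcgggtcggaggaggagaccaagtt
Slc25a39: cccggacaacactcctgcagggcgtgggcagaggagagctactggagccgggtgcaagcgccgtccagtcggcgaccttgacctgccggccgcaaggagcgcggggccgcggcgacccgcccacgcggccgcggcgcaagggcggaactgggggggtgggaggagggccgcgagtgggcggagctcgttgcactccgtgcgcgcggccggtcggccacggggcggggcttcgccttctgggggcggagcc
Slc25a45: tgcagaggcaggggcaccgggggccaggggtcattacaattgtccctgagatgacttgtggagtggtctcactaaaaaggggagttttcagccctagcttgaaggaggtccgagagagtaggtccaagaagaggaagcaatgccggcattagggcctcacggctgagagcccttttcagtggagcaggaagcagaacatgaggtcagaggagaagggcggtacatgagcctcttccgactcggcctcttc

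These windows differ in their content of CG dinucleotides, the sites of DNA methylation. The window of Slc25a39 held 35, those of Slc25a23, Slc25a45 and Slc25a47 held 9, 7 and 6, and the median of all 32851 windows was 6. Medians were 11 over the 6 liver-enriched and 19 over the 12 matched ubiquitous carriers. CCAAT in either orientation was present in 17 of 34 member windows, including those of Slc25a47 and Slc25a23 but not those of Slc25a39 and Slc25a45, and in 33.9% of all windows. TATAAA was found in 1 member window and in 12.4% of all windows. GTTAAT, part of the HNF1 motif, was found in 1 member window and 6.43% of all, GCATGCGC of NRF1 in 1 and 2.26%, and the HNF4 site CAAAGTCCA in 0 and 0.384%, all counted on both strands. A match is a description of the letters and not a site of binding.

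The other ubiquitous carriers had smaller estimated changes. Apart from Slc25a39, the 16 others had log2 changes between -0.31 and 0.45, and none was called. Some of their 95% intervals reached further, as to 0.89 for Slc25a25, so the lack of a call does not show an unchanged level. Slc25a3, the phosphate carrier that supplies ATP synthase, and Slc25a5, the main adenine nucleotide carrier of growing cells, were the highest members per kilobase, at means of 2599 and 2142 over the 6 libraries. Slc25a3 held 4145, 3788 and 4081 normalised counts in the WT libraries against 5579, 3789 and 3750 in the KO libraries. Slc25a5 held 3081, 2686 and 2405 in the WT libraries against 3276, 2373 and 2118 in the KO libraries. KO replicate 1 was the highest library for both, and the groups overlapped. Their log2 changes had 95% intervals of -0.36 to 0.56 and -0.56 to 0.38, so a change of 1 on the log2 scale lies outside both.

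Slc25a11, which exchanges oxoglutarate for malate, had a log2 change of -0.16, and the pyrimidine nucleotide carrier Slc25a36 of -0.10. Slc25a51, which carries NAD into mitochondria, stood at 1054, 1051 and 950 in the WT libraries against 867, 972 and 1150 in the KO libraries (log2 change -0.04, 95% interval -0.43 to 0.35). Slc25a28, the iron carrier mitoferrin 2, had a log2 change of 0.12. Slc25a25, a second calcium-regulated ATP-Mg carrier, held 542, 731 and 631 in the WT libraries against 1013, 724 and 863 in the KO libraries, and the groups overlapped (log2 change 0.45, SE 0.20, limma adjusted p = 0.278). Limma adjusted p was 0.278 to 0.938 over these 7 carriers of high count.

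**Figure D3:**
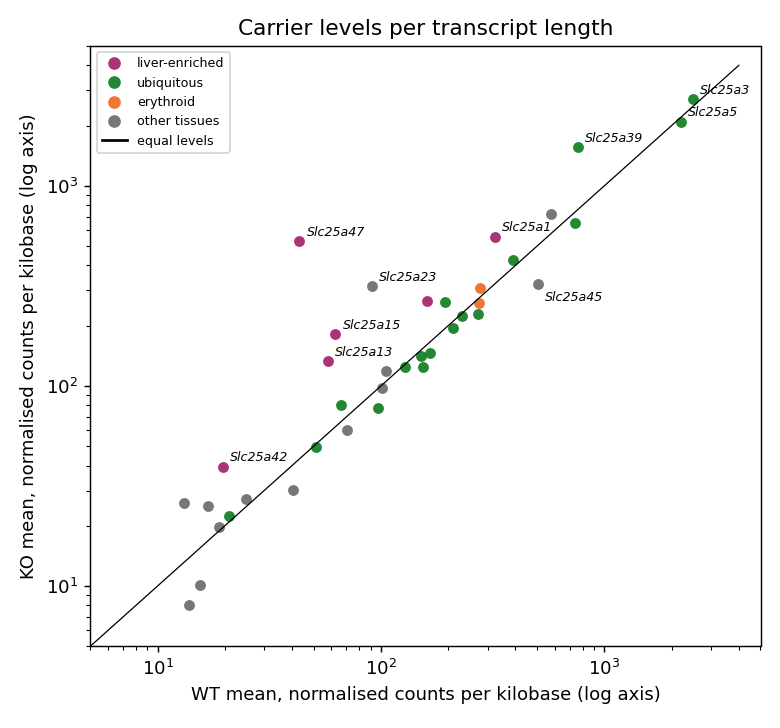
Mean level of each tested carrier in WT (horizontal) and KO libraries (vertical), in normalised counts per kilobase on log axes, with the line of equal levels. Slc25a47 moves from 43.1 to 529 and Slc25a23 from 91.4 to 314 per kilobase, while Slc25a3 and Slc25a5 stay near the line.

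The carriers of red cell precursors were not called. Slc25a37, the iron carrier mitoferrin 1, held 1471, 1590 and 1878 normalised counts in the WT libraries against 1797, 1971 and 1721 in the KO libraries (log2 change 0.16, 95% interval -0.22 to 0.54). Slc25a38, a glycine carrier needed for heme synthesis, held 446, 489 and 535 in the WT libraries against 654, 393 and 347 in the KO libraries (log2 change -0.13, 95% interval -0.70 to 0.44). The groups overlapped for both, while the erythroid markers had a median log2 change of 3.20, with overlapping groups for all 7 tested. For Slc25a37 the kept transcript is a retained intron model, with a mean of 1738 over the 6 libraries, and the next transcript, which codes for the protein, had a mean of 1444.

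Among the 18 other carriers, 13 were tested and 1, Slc25a23, was called. Slc25a45 held 1423, 1254 and 1083 normalised counts in the WT libraries against 955, 726 and 715 in the KO libraries. All KO values were below all WT values, with -0.65 on the log2 scale (SE 0.19, limma adjusted p = 0.108). Slc25a4, the adenine nucleotide carrier of heart and muscle, held 1054, 1251 and 1025 in the WT libraries against 1313, 1457 and 1396 in the KO libraries, without overlap (log2 change 0.33, SE 0.16, limma adjusted p = 0.342). Slc25a29, a carrier of basic amino acids, rested on 95 reads over the WT and 136 over the KO libraries. Its KO values lay above its WT values by a narrow gap (log2 change 1.06, SE 0.54, limma adjusted p = 0.356). The remaining 9 tested members of this group had log2 changes from -1.43 to 0.54, and none was called. The 5 members not tested, Slc25a18, Slc25a21, Slc25a31, Slc25a34 and Slc25a48, reached at most 41.7 normalised counts in any library.

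Related carriers were then compared within each library, as the ratio of their levels per kilobase, which does not depend on library scaling. Citrin (Slc25a13) stood to aralar (Slc25a12), its paralog of brain and muscle, at 0.804, 0.483 and 0.416 in WT and 1.69, 0.686 and 1.74 in KO replicates 1, 2 and 3. Slc25a12 itself had a log2 change of -0.04. The ratio overlapped between the groups (exact two-sided permutation p = 0.2, Benjamini-Hochberg adjusted over 6 pairs 0.3). The ratio of Slc25a5 to Slc25a4 was 3.84 ± 0.626 in the WT libraries against 2.92 ± 0.832 in the KO libraries (SD, n = 3 each; exact permutation p = 0.3, adjusted 0.36). That of Slc25a28 to Slc25a37 was 1.42 ± 0.180 and 1.39 ± 0.167 (SD, n = 3 each; exact permutation p = 0.6, adjusted 0.6). Ratios of Slc25a39 to Slc25a40 and of Slc25a36 to Slc25a33 did not overlap between the groups, at 24.4 to 54.6 in WT and 63.9 to 78.9 in KO libraries for the first and 1.92 to 2.52 and 1.69 to 1.86 for the second (exact permutation p = 0.1 for each, adjusted 0.3). That of Slc25a24 to Slc25a25 overlapped. For Slc25a40 the kept transcript is a retained intron model of 4467 bases, with a mean of 96.6 normalised counts. Its next transcript, which codes for the protein, has 2784 bases and a mean of 94.2. The height of the ratio of Slc25a39 to Slc25a40 therefore depends on the transcript kept. The same holds for Slc25a28 to Slc25a37, as the kept Slc25a37 transcript is a retained intron model of 5927 bases. The next transcript of Slc25a37, which codes for the protein, has 4174 bases. Of 8 pairs, 6 gave a ratio in every library, and 3 libraries against 3 cannot give an exact permutation p below 0.1.

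Enzymes that work with the liver carriers were examined next. Of 15 measured enzymes of the urea cycle, the malate-aspartate shuttle and citrate, glutamate and coenzyme A metabolism, 13 had a log2 change above 0, 5 rose and none fell, with a median of 0.69, beside 54.2% above 0 and 2.44% called over all genes. These enzymes include genes of hepatocytes, and the 20 hepatocyte markers had a median of 1.77 with 9 called. The part of hepatocyte RNA in the enzymes' changes was not tested. Otc, which forms citrulline from the ornithine that Slc25a15 imports, rose from 194 ± 166 to 1103 ± 374 normalised counts (SD, n = 3 each; limma adjusted p = 0.0463), and was named after its value was seen. Ass1, which joins citrulline to aspartate, rose from 174 ± 83.3 to 796 ± 283 (SD, n = 3 each; limma adjusted p = 0.0267). Cps1, the first enzyme of the urea cycle, Gls2, the liver glutaminase, and Pck1, of gluconeogenesis, rose by 1.72, 2.73 and 2.83 on the log2 scale.

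No gene of the other mitochondrial lists was called. Of 20 other mitochondrial transporters, 11 had a log2 change above 0 and none was called, with a median of 0.01. Their smallest limma adjusted p was 0.0528, for the sodium-calcium exchanger gene Slc8b1, at 2283 ± 371 in the WT libraries against 1317 ± 35.9 in the KO libraries (SD, n = 3 each). The channel gene Vdac1 and the calcium uniporter gene Mcu had log2 changes of 0.35 and 0.48. Of 19 genes of mitochondrial protein import, chaperones and shape, 15 were above 0 and none was called, with a median of 0.23. KO lay above WT without overlap for 8 of the 19 and below for 1. Over all genes tested, 54.2% were above 0, 2.44% were called, and 13.7% and 9.25% had KO above and below WT without overlap. Clpp, a matrix protease, had the smallest p of the 19 (log2 change 0.78, limma adjusted p = 0.127). Of 5 measured members of the carrier fold with other names, 3 were tested, all above 0, and none was called. Among these 3, KO lay above WT without overlap for 1, and 1 had an unadjusted limma p under 0.05. Ucp2, the uncoupling protein of immune cells, held 13750 ± 1465 in the WT libraries against 15894 ± 1808 in the KO libraries (SD, n = 3 each), and Mtch1 had a log2 change of 0.54.

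**Figure D4:**
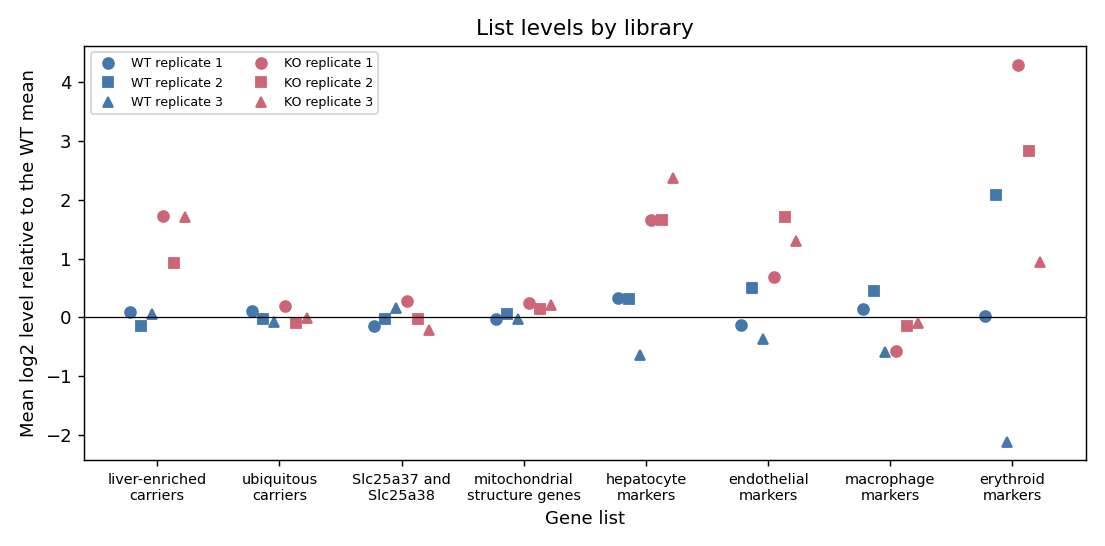
Mean log2(normalised count + 1) of each gene list in each library, relative to the mean of the WT libraries, with WT in blue and KO in red. The liver-enriched carriers lie at 0.93 to 1.73 in KO libraries and the hepatocyte markers at 1.65 to 2.37, while ubiquitous carriers lie between -0.10 and 0.20.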

How the data were processed

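Polyadenylated RNA of liver cells selected for F4/80 was sequenced in 3 WT and 3 KO libraries, grouped by their labels. Per the file headers, the authors deposited normalised counts, a signal per Ensembl transcript. That each value is a read count divided by 1 factor per library was inferred from the values, as described below. The build GRCm38.p4 and the tools STAR 2.4.0k, HTSeq 0.5.3, DESeq 1.8.3, SAMtools and bcl2fastq 2.17 are named, without roles, per the submitters' processing notes. The strand setting, annotation release and handling of multi-mapping reads were not given in the sources, and genes that overlap on opposite strands may share reads. That concerns 11 members, while 1 overlaps another gene on its own strand.

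Dividing by the smallest nonzero value of a library gave whole reads for 100% of values (tolerance 0.001). Transcripts were matched to GENCODE M21 (GRCm38), 78332 of 79382, and the transcript of highest mean was kept per gene. Of the 43 members, 29 have more than 1 transcript. In 14 of these the second was within 5% of the first, as for Slc25a36 (725 against 762), and just outside that margin was Slc25a12 (584 against 631). Kept transcripts of 4 members are retained intron models.

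limma 3.58.1 with a trended prior was fitted to log2(value + 1) for the 15619 genes that passed filterByExpr, with Benjamini-Hochberg adjustment over all genes. The added 1 can shrink fold changes of low genes on this scale. A library at 0 can also enlarge them, as for Slc25a43, at -1.43 against -0.58 with edgeR. Named carriers are all called and liver-enriched members, the red cell pair, the 8 ubiquitous carriers of highest count, 4 others of smallest p and up to 4 genes per other list. One gene that this rule names is not reported here. Members and lists were chosen with earlier results of these data known. Alternatives included edgeR 4.0.16, run on the recovered reads, where 100% of values were whole, which called 282 genes, DESeq2 1.42.0, other scalings, pseudocounts of 0.5 and 5, other filters, summed transcripts, a block for replicate number and fits without 1 library. Tested on simulated data for KO against WT with 15619 genes, limma called 14% of the 50 genes given a log2 change of 1, and 72%, 86% and 90% at 2, 3 and 4. In the simulation 15419 genes were left unchanged, while 2810 genes of the data had an unadjusted limma p under 0.05. These rates therefore need not hold for the data. Precision is limited by 3 libraries per group of 10790842 to 22157238 reads.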

Additional observations from a re-analysis of the deposited data

How the results depend on the processing

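The liver-enriched carriers kept a median log2 change of 0.89 to 1.37 and a median above that of the ubiquitous carriers by 0.95 to 1.37 under every alternative run. The median of all members was 0.08, and was -0.01 with limma-voom and -0.0038 with total reads as factors. Slc25a47 stayed called in all 18 alternatives, and Slc25a23 in all but the fit without KO replicate 3. With 1 library left out, 1 to 3 members were called higher and 0 lower. The lowest count was without KO replicate 3. DESeq2, which called 1409 genes in all, called 6 members higher and 1 lower, adding Slc25a1, Slc25a13, Slc25a15 and, below 0, Slc25a45 (adjusted p = 0.00699, 0.0462, 0.00177 and 0.0156). edgeR, summed transcripts and no filter on low counts, which called 282, 233 and 293 genes against 381, each called 2 members, without Slc25a39 (adjusted p = 0.0554 with edgeR, and 0.0561 and 0.0508 with limma). Slc25a15 passed with total reads as factors (limma adjusted p = 0.0487). The cause of these differences was not tested. The labels do not say whether replicate numbers pair the samples. Same-numbered libraries had correlations of their deviations from group means of -0.015, 0.088 and -0.14. So few libraries cannot decide whether the numbers pair them. With a replicate block 4 members were called higher, Slc25a15 included, and 539 genes in all. Values near 0 changed sign in some alternatives, none of them called: Slc25a51 was 0.017 with summed transcripts, and with 1 library left out the log2 change ranged from -0.15 to 0.056 for Slc25a51, -0.33 to 0.025 for Slc25a11, -0.27 to 0.041 for Slc25a5, -0.086 to 0.20 for Slc25a3 and -0.40 to 0.053 for Slc25a38. The use of the best protein-coding transcript, an alternative chosen after seeing the data, called the same 3 members. Over all genes, 8 were called without KO replicate 3, 138 without KO replicate 2, 809 without KO replicate 1, 174 without WT replicate 1 and 210 without WT replicate 3, against 381. With 3 libraries per group, a simulated log2 change of 1 was called in 14% of genes, where 15419 of 15619 genes were left unchanged.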

Other observations

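Slc25a29 and Slc25a47 are neighbours on chromosome 12. In the annotation of GRCm38 the gene Slc25a29 lies on the minus strand at 108825873 to 108835883 and Slc25a47 on the plus strand at 108836046 to 108856815, with 162 bases between them, the smallest gap between any members on 1 chromosome. The transcript of Slc25a47 that the deposited tables hold starts further downstream, at 108851129. Slc25a29 held 12.4, 39.9 and 25.3 normalised counts in the WT libraries against 41.7, 70.3 and 41.4 in the KO libraries. The groups did not overlap, but the gap was narrow, and the limma 95% interval of the log2 change was -0.16 to 2.28. Slc25a47 held 73.1, 57.8 and 73.6 in the WT libraries against 1104, 458 and 946 in the KO libraries. Whether their levels are linked was not tested.

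The next closest members are Slc25a43 and Slc25a5 on chromosome X, both on the plus strand and 18448 bases apart. Slc25a5 had a log2 change of -0.09. Slc25a43 was read at 15.5, 21.0 and 15.2 normalised counts in the WT libraries against 0, 11.9 and 22.0 in the KO libraries, and its value of -1.43 on the log2 scale (SE 1.14, limma adjusted p = 0.578) includes KO replicate 1, which had no read of it. The log2 change of Slc25a43 was -0.58 with edgeR.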
